A study of Mus musculus with 3 samples.

Results

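Axon guidance genes were followed in fibroblasts of mouse visceral fat: the semaphorins, ephrins, Slits and netrins with their receptors. They were taken from the deposited count table by gene symbol as every protein-coding semaphorin of classes 3 to 7, plexin, neuropilin, ephrin, Eph receptor, Slit, Robo receptor, netrin, Unc5 receptor, Dcc and Neo1, which gave 70 of the 56748 genes listed. All 3 libraries came from wild-type mice fed a high-fat diet. Cells of the stromal vascular fraction, the part of fat tissue that is not adipocytes, were depleted by magnetic sorting of those carrying CD45 (leukocytes), CD31 (endothelium) or Ter119 (erythroid cells). The fibroblasts received recombinant mouse oncostatin M (Osm) or recombinant human TGF-beta1, each at 3 ng/mL for 24 h, or vehicle, for which the labels give no time. Each condition was 1 library, and the labels say neither how many mice were pooled nor their age. No difference below therefore has a replicate check, and no p-value is given.

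Guidance proteins were first described as cues that attract or repel growing axons, and they also act on vessels, immune cells and connective tissue. Semaphorins bind plexins, and most of the secreted class 3 semaphorins need a neuropilin as co-receptor. Ephrins are anchored to the cell surface and bind Eph receptor tyrosine kinases on neighbouring cells, with signals running in both directions. Slits are large secreted glycoproteins that bind Robo receptors, and netrins are laminin-related secreted proteins whose receptors are Dcc, neogenin (Neo1) and the Unc5 family. Studies of these families in adipose tissue have included the vessels, the sympathetic nerves and the macrophages.

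The Osm, TGF-beta1 and vehicle libraries held 17319872, 18533741 and 18336068 counted reads. Levels are given as CPM (a read count relative to the scaled library size) when 1 gene is compared between libraries, and as the deposited FPKM (also divided by gene length) when genes are set side by side. A gene was tested where it reached 1 CPM in at least 1 library, which 13712 genes did. A count of 0 allows a level of up to 0.173, 0.163 and 0.163 CPM in the Osm, TGF-beta1 and vehicle libraries (3 counts). The 7 fibroblast markers summed to 11443.5, 15714.3 and 12334.5 CPM in the Osm, TGF-beta1 and vehicle libraries. Pdgfra (1122, 697 and 1129 CPM), Dcn, Lum and Dpt were lowest with TGF-beta1. Col1a1 (4023, 8039 and 4285 CPM), Col1a2 and the less abundant Pi16 (15.4, 74.5 and 16.96 CPM) were highest with TGF-beta1. The 8 leukocyte markers summed to 21.0, 17.6 and 24.1 CPM in the Osm, TGF-beta1 and vehicle libraries. Most of that was Cd68 (6.68, 3.69 and 8.91 CPM), Csf1r (8.41, 10.2 and 8.48 CPM) and Cd14 (5.24, 2.88 and 5.71 CPM), while Cd3e was at 0 and Ptprc, the gene of CD45, reached at most 0.115 CPM. The 4 adipocyte markers together reached at most 0.288 CPM, and the erythroid markers were at 0. The 8 endothelial markers summed to 45.6, 37.9 and 56.6 CPM in the Osm, TGF-beta1 and vehicle libraries, most of it Tek (38.9, 34.4 and 48.5 CPM) and Vwf (4.84, 1.57 and 6.20 CPM), with Robo4 and Cldn5 at 0 in all 3 and Pecam1 at most 0.271 CPM. The 6 mural markers summed to 1409, 1406 and 1433 CPM, nearly all of it Pdgfrb, while Cspg4 was at 7.38, 74.9 and 8.53 CPM and Abcc9 at 6.05, 1.74 and 4.29 CPM. The 5 mesothelial markers summed to 39.5, 48.0 and 40.4 CPM, most of it Wt1. The 8 Schwann and neuronal markers summed to 121.8, 187 and 113 CPM, nearly all of it Tubb3, with Sox10, Elavl4 and Snap25 at 0. The part of such cells in the differences described was not tested.

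Of the 70 guidance genes, 50 reached 1 CPM in at least 1 library and 47 did so in all 3. Epha1 did so with TGF-beta1 alone, and Epha7 and Ntn3 did so with Osm and vehicle. Among the other 20, Dcc, Robo4, Ntn5, Epha5, Epha6, Epha8 and Epha10 had no read in any library. The remaining 13 (Sema3f, Sema3g, Sema4d, Sema4f, Sema5b, Plxnb3, Efnb3, Ephb1, Slit1, Robo2, Robo3, Unc5c and Unc5d) had at most 18 reads in a library. Unc5c gave those 18 reads with TGF-beta1, against 9 with Osm and 4 with vehicle.

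The most abundant guidance genes per length were a Slit, plexins and a netrin receptor. By mean FPKM over the 3 libraries, Slit3 stood at rank 403 of the tested genes (105 FPKM), Plxna1 at rank 592 (74.6 FPKM), Plxnb2 at rank 795 (57.0 FPKM) and Unc5a at rank 1575 (30.1 FPKM). Ntn1 followed with 22.9 FPKM and Nrp2 with 21.6 FPKM. The median of the 50 tested guidance genes was 2.80 FPKM, against 5.17 FPKM over all tested genes. In each family 1 or a few members carried most of the level. Slit3 made up 93.2%, 80.2% and 92.6% of the summed Slit FPKM in the Osm, TGF-beta1 and vehicle libraries. These shares rest on the deposited gene lengths, 25433 bases for Slit2 and 6067 for Slit3. Robo1 made up at least 99.4% of the Robo FPKM in each library. These fibroblasts thus held reads of Slits and of a single Robo receptor above 1 CPM, and of netrins with Unc5a, Unc5b and Neo1 but no read of Dcc.

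**Figure D1:**
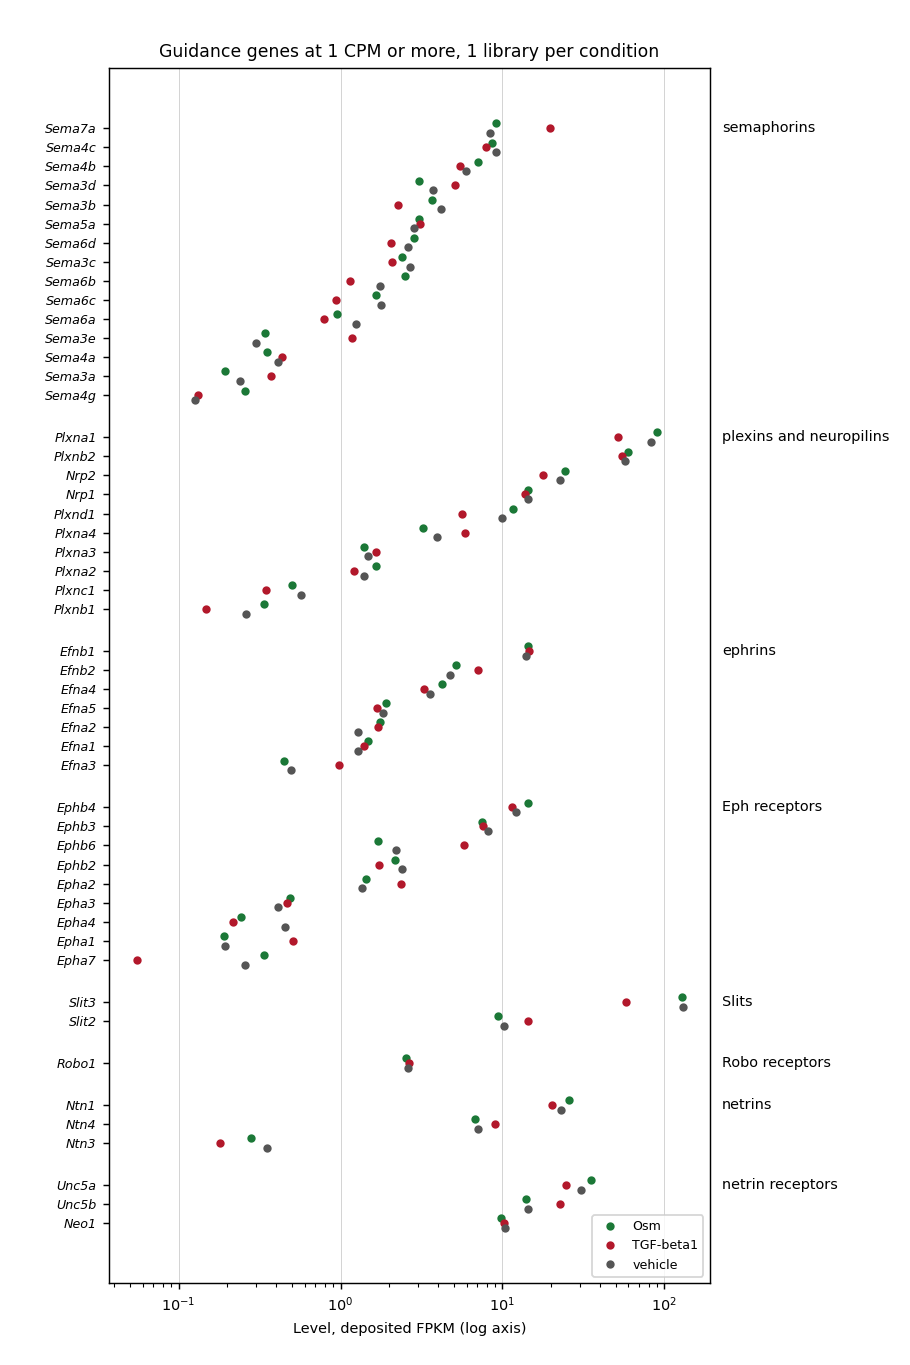
Level in deposited FPKM (log axis) of the 50 guidance genes that reached 1 CPM in at least 1 library, by family and in falling order of mean FPKM. Each point is 1 library. Levels run from 0.0550 FPKM for Epha7 with TGF-beta1 to 129 FPKM for Slit3 with Osm or vehicle.

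With TGF-beta1 the guidance genes differed from vehicle in both directions. Sema3e, Sema7a, Ephb6 and Epha1 were higher by 2-fold or more, and Slit3, Epha4 and Epha7 were lower by that much. A gene was counted when its log2 ratio of CPM reached 1 or -1 and the ratio of its counts had an exact 95% interval that excluded 1. These intervals, given in parentheses after each fold, cover counting error only. The 4 higher and 3 lower genes were among 50 tested, while over all 13712 tested genes 2.27% were higher and 4.79% lower by the same rule (7.06% in either direction). Under a 1.5-fold rule with the same interval, 8 of the 50 were higher and 12 lower, against 6.01% and 9.53% of all tested genes (15.5% together). On the deposited FPKM scale with a pseudocount of 0.1, 7 were higher and 9 lower by that rule. The median log2 ratio of the 50 was -0.08, against 0.01 over all tested genes, and 19 of the 50 lay within 1.2-fold of vehicle, against 53.3% of all tested genes. In RNA from a whole culture, fewer cells of a type and less RNA per cell cannot be told apart.

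**Figure D2:**
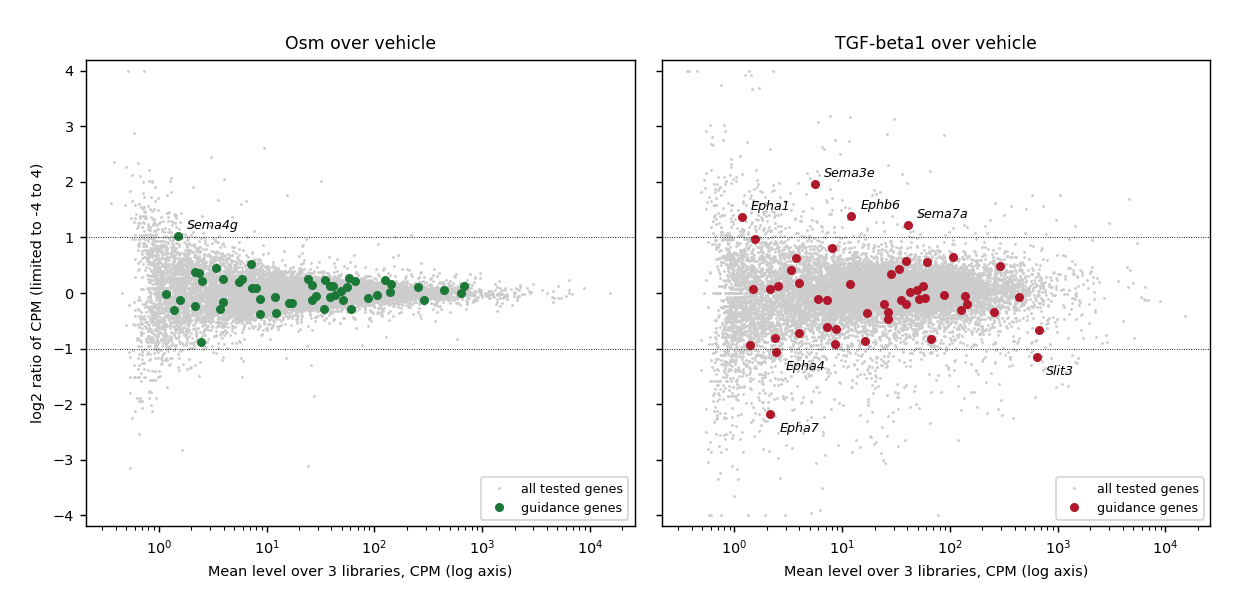
Log2 ratio of CPM against mean level over the 3 libraries for all 13712 tested genes (grey) and the 50 tested guidance genes (coloured), for Osm over vehicle (left) and TGF-beta1 over vehicle (right). Names mark genes past the 2-fold rule, which are 1 with Osm and 7 with TGF-beta1, and dotted lines mark 2-fold. Of all tested genes, 1.6% with Osm and 7.06% with TGF-beta1 were past it in either direction.

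Among the ligands, the semaphorins gave the largest upward difference. Sema3e, a secreted class 3 semaphorin that binds plexin D1 without a neuropilin and repels endothelial cells in mouse embryos, had 55, 200 and 51 reads in the Osm, TGF-beta1 and vehicle libraries. That is 3.17 CPM with Osm, 10.9 with TGF-beta1 and 2.77 with vehicle. It was 3.91-fold higher with TGF-beta1 than with vehicle (2.87 to 5.43), and only the TGF-beta1 library stood apart. Sema7a, a membrane-anchored semaphorin that binds plexin C1 and integrins with the beta1 subunit and has a known role in lung fibrosis in mice, was at 30.1 CPM with Osm, 64.9 with TGF-beta1 and 27.7 with vehicle. It was 2.34-fold higher with TGF-beta1 (2.11 to 2.60). At 19.7 FPKM it was the most abundant semaphorin of the TGF-beta1 library, with 37.1% of the summed semaphorin FPKM, while Sema4c led in the vehicle library with 19.9%.

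The promoters of both genes are shown because they were the semaphorins past the 2-fold rule with TGF-beta1. The sequences are RefSeq's on build GRCm38.p6, from 250 bases before to 50 bases after the annotated start, 5′ to 3′ on the plus strand. Sema3e lies at chr5:14025026-14025325 and Sema7a at chr9:57939862-57940161. Both strands were searched for the Smad-binding box CAGAC, the STAT motif TTCNNNGAA and the AP-1 motif TGANTCA, which occur in 49.6%, 8.3% and 7.81% of the 32851 promoter windows of that table. Matches are in capitals.
Sema3e: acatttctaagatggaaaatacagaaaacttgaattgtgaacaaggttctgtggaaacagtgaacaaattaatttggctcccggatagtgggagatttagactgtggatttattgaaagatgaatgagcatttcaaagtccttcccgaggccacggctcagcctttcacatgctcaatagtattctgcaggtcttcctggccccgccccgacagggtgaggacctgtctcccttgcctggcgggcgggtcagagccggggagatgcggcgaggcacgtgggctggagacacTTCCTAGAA
Sema7a: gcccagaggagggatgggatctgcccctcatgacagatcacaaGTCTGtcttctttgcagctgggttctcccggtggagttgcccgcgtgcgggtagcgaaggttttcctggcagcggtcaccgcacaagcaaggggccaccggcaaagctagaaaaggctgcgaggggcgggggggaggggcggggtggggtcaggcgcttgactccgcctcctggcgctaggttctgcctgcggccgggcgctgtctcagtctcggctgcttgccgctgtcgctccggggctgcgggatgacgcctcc
The Sema3e window holds 1 STAT match, TTCCTAGAA, and 11 CpG dinucleotides. The Sema7a window holds 1 Smad box, read as GTCTG from 207 bases before the start, and 23 CpG dinucleotides. A match says only that these letters are present.

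The other semaphorins were mostly equal or lower with TGF-beta1. Sema3a, the classical repellent ligand of neuropilin 1, was at 2.71 CPM with Osm, 5.15 with TGF-beta1 and 3.32 with vehicle, 1.55-fold higher with TGF-beta1 (1.12 to 2.18). Sema3d, another secreted class 3 member, was at 26.3, 43.5 and 32.2 CPM in the Osm, TGF-beta1 and vehicle libraries, 1.35-fold higher with TGF-beta1 (1.21 to 1.505) and short of both rules against vehicle. Sema3b, a ligand of neuropilin 2, was at 17.6 CPM with Osm, 10.9 with TGF-beta1 and 19.9 with vehicle, 1.83-fold lower with TGF-beta1 (1.54 to 2.19). All 3 class 6 members that passed the 1.5-fold rule were lower. These are transmembrane semaphorins that bind class A plexins. Sema6c was at 9.80 CPM with Osm, 5.59 with TGF-beta1 and 10.6 with vehicle (1.90-fold lower with TGF-beta1, 1.49 to 2.43). Sema6a was at 8.36, 6.94 and 10.9 CPM in the Osm, TGF-beta1 and vehicle libraries, 1.57-fold lower with TGF-beta1 (1.25 to 1.97). Sema6b was at 10.03, 4.56 and 6.96 CPM, highest with Osm and 1.53-fold lower with TGF-beta1 than with vehicle (1.15 to 2.03). The remaining class 6 gene, Sema6d, was 1.26-fold lower (1.10 to 1.44). The abundant class 4 genes stayed near vehicle: Sema4c, a ligand of plexin B2, was at 39.5, 36.3 and 41.7 CPM in the Osm, TGF-beta1 and vehicle libraries, and Sema4b at 39.8, 31.0 and 33.6 CPM. Sema5a was at 57.3, 57.7 and 52.9 CPM, Sema3c was 1.29-fold lower with TGF-beta1 (1.10 to 1.52), and Sema4a was at 1.90, 2.33 and 2.23 CPM.

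Position, which played no part in choosing the genes, set the class 3 semaphorins of chromosome 5 side by side. In the deposited coordinates (build mm39), Sema3d (12433352 to 12638915), Sema3a (13175381 to 13652533) and Sema3e (14075290 to 14306703) lie in a row within 1.87 Mb, and Sema3c follows at 17779279 to 17935266. Of the 78 genes listed from Sema3d to Sema3c, 7 were tested. Going along the chromosome, the log2 ratios of TGF-beta1 over vehicle were 0.43 for Sema3d, 0.63 for Sema3a and 1.96 for Sema3e. They were -0.23 for the calcium channel subunit gene Cacna2d1, -0.71 for the hepatocyte growth factor gene Hgf, -0.05 for the pseudogene Gm8991 and -0.37 for Sema3c. The 3 neighbouring semaphorins were thus higher with TGF-beta1, and the intervals of all 3 excluded 1. No tested gene from Cacna2d1 to Sema3c was higher. Over all 13712 tested genes, the TGF-beta1 interval excluded 1 for 7126, and the log2 ratio was above 0 for 7035. Of the 3 semaphorins only Sema3e passed the 2-fold rule, and Sema3d passed neither rule. With Osm, the log2 ratios over vehicle of Sema3d, Sema3a and Sema3e were -0.29, -0.29 and 0.19.

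No plexin or neuropilin passed the 2-fold rule with TGF-beta1, where 7.06% of all tested genes did. The 4 of 10 tested that passed the 1.5-fold rule were all lower, against 9.53% of all tested genes lower and 6.01% higher. Plxnd1, the receptor of Sema3e, was at 84.9 CPM with Osm, 41.1 with TGF-beta1 and 72.9 with vehicle, 1.77-fold lower with TGF-beta1 (1.62 to 1.94). Ligand and receptor thus differed from vehicle in opposite directions in the TGF-beta1 library. Plxnc1, the plexin that binds Sema7a, was at 4.21 CPM with Osm, 2.88 with TGF-beta1 and 4.73 with vehicle (1.64-fold lower with TGF-beta1, 1.16 to 2.36). Itgb1, which encodes the integrin subunit of the other Sema7a receptors, was 1.37-fold higher (1.35 to 1.39), and Itga1, which encodes an alpha chain that pairs with it, was 1.22-fold lower (1.04 to 1.44). Plxna1, a co-receptor of class 3 semaphorins and the most abundant plexin per length with vehicle, was at 814 CPM with Osm, 470 with TGF-beta1 and 745 with vehicle. It was 1.59-fold lower with TGF-beta1 (1.54 to 1.63). Plxna1 shares 970 exon bases with the antisense gene Gm26811, itself at 10.4, 2.98 and 8.04 CPM in the Osm, TGF-beta1 and vehicle libraries. Plxnb1, the receptor of Sema4d, was at 3.23 CPM with Osm, 1.41 with TGF-beta1 and 2.50 with vehicle, 1.77-fold lower with TGF-beta1 (1.07 to 2.99). It had 56, 26 and 46 reads in the Osm, TGF-beta1 and vehicle libraries.

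The remaining plexins and both neuropilins were within 1.5-fold of vehicle. Plxna4, a receptor subunit for class 3 and class 6 semaphorins, was the one plexin clearly above vehicle, at 45.6 CPM with Osm, 82.4 with TGF-beta1 and 55.7 with vehicle (1.48-fold higher with TGF-beta1, 1.37 to 1.60). Plxnb2 was at 459, 420 and 443 CPM in the Osm, TGF-beta1 and vehicle libraries, which made it the most abundant plexin per length with TGF-beta1. Nrp1 was at 142, 135 and 140 CPM, a TGF-beta1 difference within counting error. Nrp2 was at 288, 211 and 269 CPM, 1.27-fold lower with TGF-beta1 (1.22 to 1.33). Plxna2 was 1.15-fold lower and Plxna3 1.12-fold higher.

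**Figure D3:**
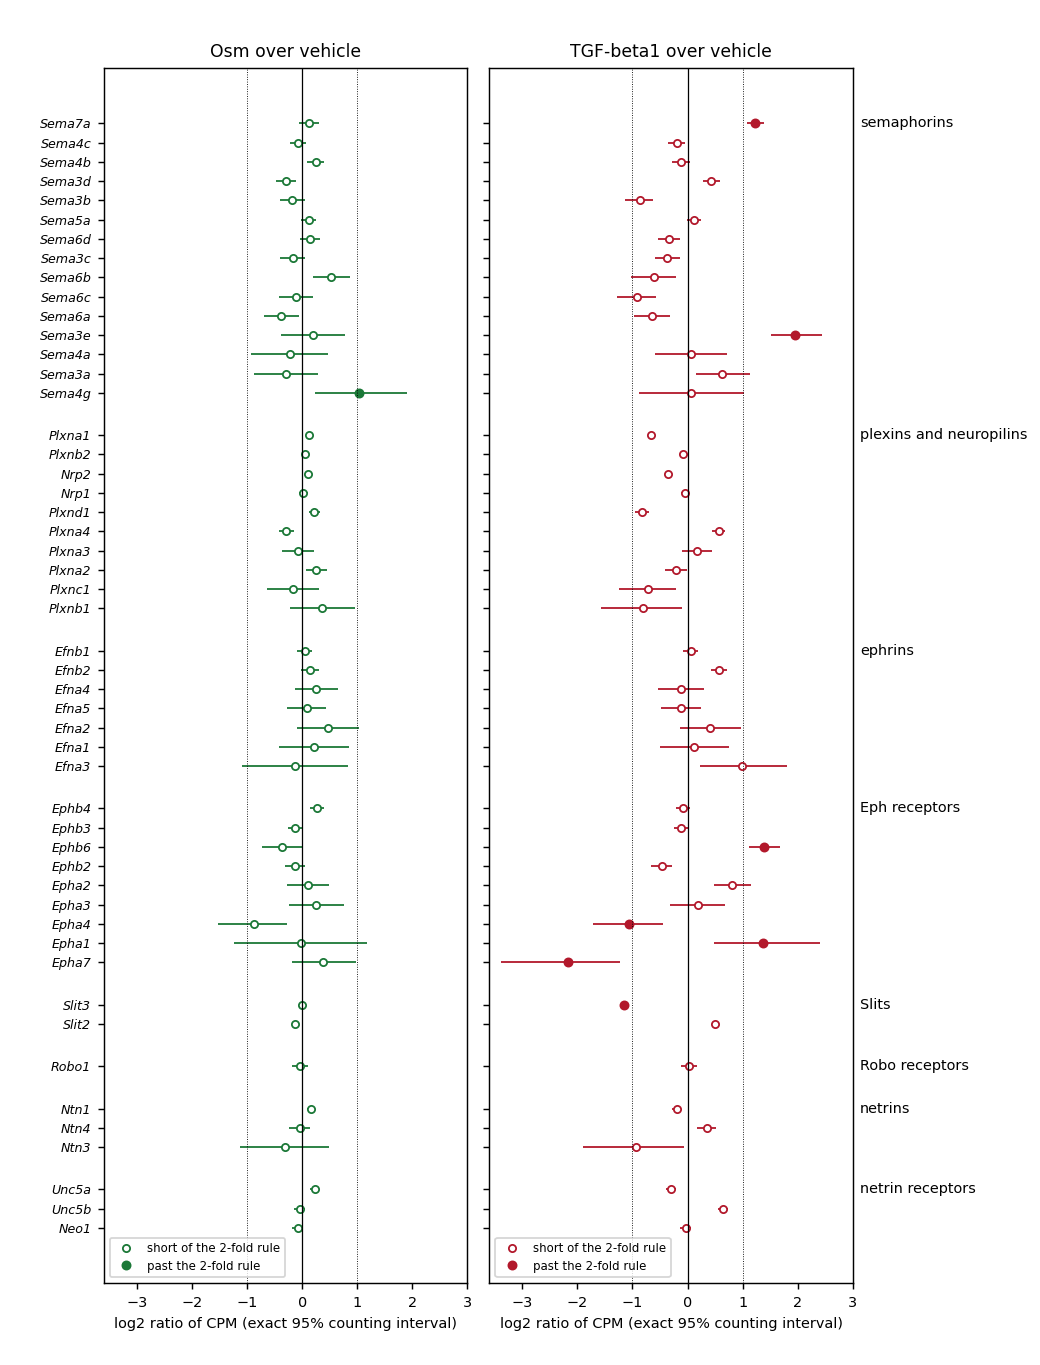
Log2 ratio of CPM for the 50 tested guidance genes by family, Osm over vehicle on the left and TGF-beta1 over vehicle on the right. Points are 1 library over 1 library, lines the 95% counting interval, filled points the genes past the 2-fold rule and dotted lines 2-fold. The Osm points spread from Epha4 (-0.88) to Sema4g (1.03) and the TGF-beta1 points from Epha7 (-2.18) to Sema3e (1.96).

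The expressed Slits moved apart with TGF-beta1. Slit3 (chromosome 11, 35012051 to 35599334, mm39) was at 783 CPM with Osm, 353 with TGF-beta1 and 784 with vehicle, 2.22-fold lower with TGF-beta1 (2.16 to 2.29). Slit2 (chromosome 5, 48140480 to 48465075) was at 238 CPM with Osm, 366 with TGF-beta1 and 261 with vehicle, 1.40-fold higher with TGF-beta1 (1.35 to 1.46) and short of both rules against vehicle. Per length, the ratio of Slit2 to Slit3 was 0.248 with TGF-beta1 (0.239 to 0.256), against 0.0794 with vehicle (0.0768 to 0.0820), and it was 0.0725 with Osm (0.0700 to 0.0751). The shift of that ratio, in which gene length cancels, was 3.12-fold for TGF-beta1 over vehicle (2.98 to 3.27) and 0.914-fold for Osm over vehicle (0.871 to 0.959). The level per length rests on the gene lengths the authors used, 25433 bases for Slit2 and 6067 for Slit3, whereas the longest coding transcripts in GENCODE M21 are 9960 and 5228 bases. Because Slit3 was the larger share on the deposited lengths, the summed Slit level was lower with TGF-beta1, at 72.7 FPKM against 140 FPKM with vehicle. The shares, the ratio per length and this sum would change with other lengths. Slit1 had 1 read, in the vehicle library.

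Robo1, the receptor that both Slits bind, was at 42.1, 43.7 and 43.1 CPM in the Osm, TGF-beta1 and vehicle libraries, differences within counting error. Of the other Robo genes, Robo2 had 1 read with TGF-beta1, Robo3 had 1 with TGF-beta1 and 2 with vehicle, and the endothelial Robo4 had none. Mir218-1 and Mir218-2, which lie within Slit2 and Slit3 in the deposited coordinates, were listed at 0 counts in libraries made from polyadenylated RNA.

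The promoter windows of Slit2 (chr5:47982905-47983204, plus strand) and Slit3 (chr11:35121206-35121505, plus strand) are shown because these genes differed from vehicle in opposite directions. Build, source, motifs and capitals are as for the semaphorin promoters.
Slit2: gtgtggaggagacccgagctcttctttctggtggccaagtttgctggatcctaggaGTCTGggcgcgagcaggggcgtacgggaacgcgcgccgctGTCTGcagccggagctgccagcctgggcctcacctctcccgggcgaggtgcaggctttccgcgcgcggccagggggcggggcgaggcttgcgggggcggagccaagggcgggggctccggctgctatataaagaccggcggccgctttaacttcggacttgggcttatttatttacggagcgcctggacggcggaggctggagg
Slit3: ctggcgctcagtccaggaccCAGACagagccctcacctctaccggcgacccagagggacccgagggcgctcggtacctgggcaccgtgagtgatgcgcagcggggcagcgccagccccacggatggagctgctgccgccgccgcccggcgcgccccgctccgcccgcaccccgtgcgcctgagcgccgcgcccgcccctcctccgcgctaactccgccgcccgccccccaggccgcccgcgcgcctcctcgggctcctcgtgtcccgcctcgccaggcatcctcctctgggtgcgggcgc
Slit2 holds 2 Smad boxes, read as GTCTG from 194 and 154 bases before the start, and Slit3 holds 1, read as CAGAC from 230 bases before it. Neither window holds these letters of the STAT or AP-1 motif. Both are rich in CpG dinucleotides, with 30 for Slit2 and 41 for Slit3, where 34.6% of all promoter windows have at least 15.

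**Figure D4:**
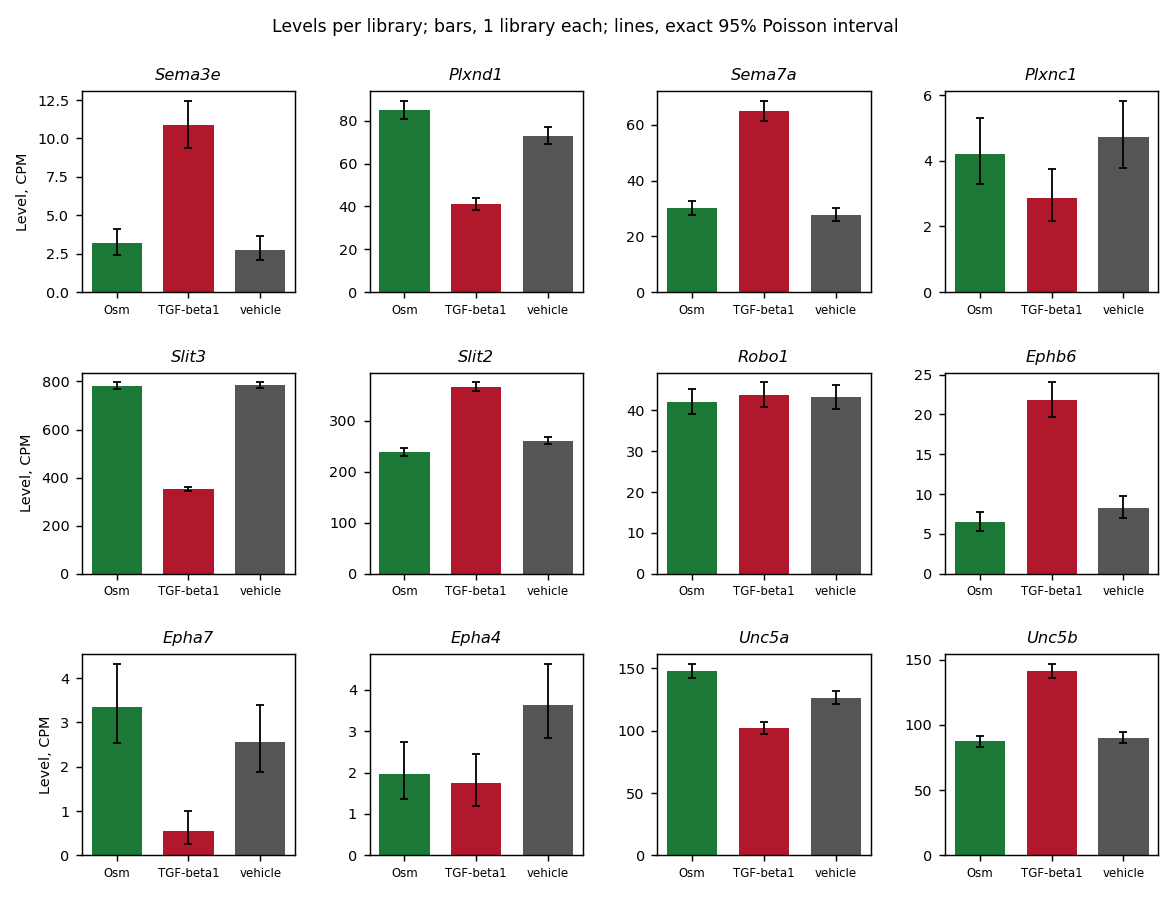
Level in CPM of 12 guidance genes in the Osm, TGF-beta1 and vehicle libraries, each panel with its own axis from 0. Bars are 1 library each and lines the exact 95% Poisson interval of the count. Sema3e, Sema7a, Slit2, Ephb6 and Unc5b are highest with TGF-beta1, while Plxnd1, Slit3, Epha7 and Unc5a are lowest there and Robo1 stays level.

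Of the 7 tested ephrins, the membrane-bound ligands, 4 lay within 1.2-fold of vehicle with TGF-beta1, against 53.3% of all tested genes. Efnb1 was the most abundant at 14.3, 14.5 and 13.9 FPKM in the Osm, TGF-beta1 and vehicle libraries. Efnb2, the ligand of Ephb4 known from arterial endothelium, was at 35.8 CPM with Osm, 48.5 with TGF-beta1 and 32.6 with vehicle (1.49-fold higher with TGF-beta1, 1.34 to 1.65). Efna3, a lipid-anchored class A ephrin, was the only ephrin past the 1.5-fold rule, with 19 reads with Osm, 44 with TGF-beta1 and 22 with vehicle. With TGF-beta1 its log2 ratio over vehicle was 0.98, and the interval of the fold was 1.17 to 3.50. Of its 50-base windows, 14.6% occur on either strand in a transcript of another gene. It shares 344 exon bases (14.1%) with Gm15998 on the opposite strand, itself at 0.691, 0.488 and 0.543 CPM in the Osm, TGF-beta1 and vehicle libraries. Whether counting used strand is not stated, so reads of the shared bases cannot be told apart. The other class A ephrins had intervals that included 1: Efna4, the most abundant of them per length, was at 6.80, 5.26 and 5.71 CPM, and Efna1, Efna2 and Efna5 were between 1.09-fold lower and 1.34-fold higher with TGF-beta1.

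Of 9 Eph receptors tested, 2 were higher and 2 lower by the 2-fold rule with TGF-beta1. Over all tested genes 2.27% were higher and 4.79% lower. Of these receptors, Epha1 has the limits given in the next paragraph, and Epha7 and Epha4 rest on few reads. Ephb6, an Eph receptor without kinase activity, was at 6.45 CPM with Osm, 21.8 with TGF-beta1 and 8.31 with vehicle, 2.62-fold higher with TGF-beta1 (2.17 to 3.18). Epha7, a receptor of class A ephrins, had 58 reads with Osm and 10 with TGF-beta1, against 47 with vehicle. At 0.543 CPM with TGF-beta1 and 2.55 CPM with vehicle it was 4.71-fold lower (2.35 to 10.4), the largest downward difference. It reached 1 CPM with Osm and vehicle alone, so it was tested only through libraries where it was higher. Epha4, which binds ephrins of both classes, had 34 reads with Osm and 32 with TGF-beta1, against 67 with vehicle. It was 2.10-fold lower with TGF-beta1 (1.36 to 3.30) and 1.86-fold lower with Osm (1.21 to 2.90), but on the deposited FPKM scale with a pseudocount of 0.1 its log2 ratio for TGF-beta1 was -0.81, under the rule. Epha2, a receptor known from epithelial cells, was at 6.74 CPM with Osm, 11.1 with TGF-beta1 and 6.30 with vehicle (1.76-fold higher with TGF-beta1, 1.39 to 2.22).

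Epha1 had 13 reads with Osm and 37 with TGF-beta1, against 14 with vehicle, 2.64-fold higher with TGF-beta1 (1.39 to 5.28). It reached 1 CPM in the TGF-beta1 library alone, so it had to differ to be tested. It also shares 236 exon bases with Zyx on the opposite strand, which was at 269 CPM with Osm, 397 with TGF-beta1 and 277 with vehicle. No label says whether counting used strand, so reads of both genes cannot be told apart, and without Epha1 the count of higher genes is 3. The abundant Eph receptors were near vehicle with TGF-beta1. Ephb4 was at 67.1, 52.8 and 55.9 CPM in the Osm, TGF-beta1 and vehicle libraries and Ephb3 at 49.7, 50.3 and 54.4 CPM. Ephb2 was 1.38-fold lower with TGF-beta1 (1.21 to 1.57), and Epha3 had an interval that included 1.

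None of the 6 netrins and netrin receptors tested passed the 2-fold rule against vehicle. Over all tested genes 1.6% passed it with Osm and 7.06% with TGF-beta1. Ntn1, the founding netrin, was at 162, 126 and 144 CPM in the Osm, TGF-beta1 and vehicle libraries, 1.14-fold lower with TGF-beta1 (1.08 to 1.21). Ntn4, a netrin that binds laminin in basement membranes, was 1.27-fold higher with TGF-beta1 (1.13 to 1.44), at 33.7 CPM against 26.5 CPM with vehicle, and at 25.6 CPM with Osm. Ntn3 was 1.94-fold lower (1.05 to 3.72) on 17 reads with TGF-beta1 and 33 with vehicle, and it had 25 with Osm. It shares 89 exon bases with Tbc1d24 on the same strand, which was at 22.2 CPM with TGF-beta1 and 33.3 CPM with vehicle. Reads of the shared bases cannot be told apart, and their part in the Ntn3 difference was not tested. Like Epha7, Ntn3 was tested only through the Osm and vehicle libraries.

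Receptors of the Unc5 family, which mediate repulsion by netrins, differed from vehicle in opposite directions. Unc5b was at 87.4 CPM with Osm, 141 with TGF-beta1 and 90.1 with vehicle, 1.57-fold higher with TGF-beta1 (1.47 to 1.67). Unc5a was at 148 CPM with Osm, 102 with TGF-beta1 and 126 with vehicle, 1.24-fold lower with TGF-beta1 (1.16 to 1.32). Their ratio per length, Unc5b to Unc5a, was 0.921 with TGF-beta1, against 0.475 with vehicle, and 0.393 with Osm. That ratio shifted 1.94-fold for TGF-beta1 over vehicle (1.78 to 2.12). Neo1, the neogenin receptor of netrins and of the repulsive guidance molecules, was level at 85.6, 88.3 and 90.6 CPM. Rgma and Rgmb, which encode those molecules, were at 68.5 and 74.5 CPM with TGF-beta1, against 81.6 and 86.7 CPM with vehicle.

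With Osm, 37 of the 50 tested guidance genes were within 1.2-fold of vehicle, against 77.8% of all tested genes, and the median log2 ratio was 0.03, against 0.00 over all tested genes. Sema4g, a transmembrane class 4 semaphorin, was the single gene past the 2-fold rule, where 0.948% of all tested genes were higher and 0.649% lower (1.6% in either direction). It had 39 reads with Osm, 21 with TGF-beta1 and 20 with vehicle, 2.07-fold higher with Osm (1.18 to 3.74), and fell short with a prior count of 2, where its log2 ratio was 0.98. By the 1.5-fold rule it was joined by Epha4, which was lower, against 2.1% of all tested genes higher and 1.66% lower (3.76% together). Epha4 was the one guidance gene below vehicle by that rule with both ligands, and both comparisons share the vehicle library. The interval excluded 1 for 17 of the 50, counting these, against 2951 of all 13712 tested genes. Among the 17 was Sema6b, 1.44-fold higher with Osm than with vehicle (1.14 to 1.83). Plxnd1 was 1.17-fold higher with Osm (1.08 to 1.26), Unc5a 1.17-fold higher (1.11 to 1.24) and Plxna4 1.22-fold lower (1.11 to 1.34). Sema6a was 1.30-fold lower (1.05 to 1.62) and Slit2 1.10-fold lower (1.05 to 1.14).

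Set directly against TGF-beta1, the Osm library had 5 of the 50 tested guidance genes past the 2-fold rule on the higher side and 5 on the lower, while 5.07% and 2.42% of all tested genes were (7.49% together). By the 1.5-fold rule 9 were higher and 11 lower, against 9.93% and 6.16% of all tested genes (16.1% together). This comparison shares its libraries with those above and adds 4 genes that passed no 2-fold rule against vehicle. Plxnd1 was 2.07-fold higher with Osm than with TGF-beta1 (1.89 to 2.26), Sema6b 2.20-fold higher (1.69 to 2.89) and Plxnb1 2.29-fold higher (1.41 to 3.80), while Efna3 was 2.18-fold lower (1.25 to 3.95). The others were Slit3 and Epha7, higher with Osm, and Sema3e, Sema7a, Ephb6 and Epha1, lower with Osm. Epha1 reached 1 CPM in the TGF-beta1 library alone and shares exon bases with Zyx. Its place in both counts of lower genes thus has the limits given above. Epha7 had the largest ratio, 6.16-fold (3.12 to 13.5), on 10 reads with TGF-beta1. It was tested only through the Osm and vehicle libraries, where it was higher. The genes past the 1.5-fold rule but not the 2-fold rule were Sema3b, Sema4g, Sema6c and Plxna1, higher with Osm than with TGF-beta1, and Sema3a, Sema3d, Plxna4, Epha2, Slit2 and Unc5b, lower. They ran from 1.62-fold higher for Sema3b to 1.97-fold higher for Sema4g, and from 1.54-fold lower for Slit2 to 1.90-fold lower for Sema3a.

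A list of 45 transducers of guidance receptors had 42 tested, none of which passed the 2-fold rule in any of the 3 comparisons. Of all tested genes, 1.6% passed it for Osm over vehicle, 7.06% for TGF-beta1 over vehicle and 7.49% for Osm over TGF-beta1. By the 1.5-fold rule 2 were higher and 3 lower with TGF-beta1, where 15.5% of all tested genes passed it. None passed it with Osm, where 3.76% did. For Osm over TGF-beta1, 2 were higher and 1 lower by that rule, where 16.1% of all tested genes passed it. Within 1.2-fold of vehicle lay 39 of the 42 with Osm and 23 with TGF-beta1, against 77.8% and 53.3% of all tested genes. The highest by CPM were Mical2, an oxidase that disassembles actin filaments, and Arhgef12, an exchange factor bound by class B plexins. Mical2 was at 407, 574 and 402 CPM in the Osm, TGF-beta1 and vehicle libraries and Arhgef12 at 349, 285 and 355 CPM. The median log2 ratio of the list was -0.05 with Osm and 0.01 with TGF-beta1. A second list of 23 other ligands, co-receptors and receptors that meet guidance proteins had 16 tested, with none past the 2-fold rule with Osm and 2 lower with TGF-beta1, where 4.79% of all tested genes were lower. By the 1.5-fold rule 1 was higher with Osm and 5 were lower with TGF-beta1, against 2.1% and 9.53% of all tested genes. Draxin, a secreted netrin antagonist, was at 2.07 CPM with Osm, 0.163 with TGF-beta1 (3 reads) and 1.14 with vehicle. It was tested only through the Osm and vehicle libraries, where it was higher. It was 7.01-fold lower with TGF-beta1 than with vehicle (2.09 to 36.7), 1.82-fold higher with Osm than with vehicle (1.03 to 3.28) and 12.7-fold higher with Osm than with TGF-beta1 (4.03 to 64.7). The other lower gene was Cd72, a receptor of Sema4d known from B cells, at 0.980 CPM with Osm, 0.434 with TGF-beta1 and 1.30 with vehicle (3.01-fold lower with TGF-beta1, 1.31 to 7.74). Cd72 reached 1 CPM in the vehicle library alone, so it had to be lower elsewhere to be tested. The highest by CPM in that list were Mmp14, a membrane-bound matrix metalloproteinase that can shed semaphorins, at 1098, 721 and 1084 CPM in the Osm, TGF-beta1 and vehicle libraries, and Itgb1 at 1087, 1544 and 1128 CPM. The list's median log2 ratio was 0.00 with Osm and -0.24 with TGF-beta1.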

How the data were processed

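Polyadenylated RNA of 3 libraries was sequenced, 1 per condition, grouped by sample title. Per the labels' protocols, libraries with or without strand information are described, and which was made is not stated. Per the submitters' processing notes, CASAVA, HISAT2, HISAT and TopHat2 were named, without versions or roles, with build mm39. The read counter, annotation release and filters are named by no label. The authors deposited whole-number read counts per gene, used as deposited, and FPKM values, in which each count had been divided by the length of its gene and by an effective library size, as the values show.

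Counts were scaled to CPM with TMM factors from edgeR 4.0.16 in R 4.3.3 (1.00 for Osm, 0.995 for TGF-beta1 and 1.00 for vehicle). Log2 ratios used a prior count of 0.5 and were computed for the 13712 genes that reached 1 CPM in any library. Intervals were exact 95% Clopper-Pearson intervals of the ratio of counts or Poisson intervals of a count. Only the shifts of the Slit2 to Slit3 and Unc5b to Unc5a ratios differed, with 95% normal-approximation intervals of the log odds ratio. Reads carry no molecular identifiers, so intervals and the floor of 3 counts cover counting error only. With 1 library per condition no model was fitted. DESeq2 1.42.0 gave the alternative size factors. Other steps used Python 3.11.15, pandas 2.3.3, numpy 2.4.6, matplotlib 3.10.9 and scipy 1.17.1.

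Values in all libraries were given for genes past the 2-fold or 1.5-fold rule in any comparison and for the 3 with the highest mean FPKM per family. From the lists of transducers and partners, those past the 2-fold rule and the 2 with the highest mean CPM were named. Hgf, Cacna2d1 and other neighbours on chromosome 5, Zyx, Itga1, Rgma and Rgmb were named after their values were seen, and so were the 4 promoters and 3 motifs chosen. The members and lists were chosen with earlier results of these data known. Shared 50-base windows, sampled every 10 bases, and exon overlaps came from GENCODE M21 (GRCm38). RefSeq promoters were found for 60 of the 70 genes. Coordinates of genes are the deposited mm39 ones.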

Additional observations from a re-analysis of the deposited data

How the results depend on the processing

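No paired analysis was possible because each condition has 1 library, and no library could be left out. The alternatives were DESeq2 size factors, count totals without TMM factors, a prior count of 2, no filter, a filter at 5 CPM, and deposited FPKM with a pseudocount of 0.1. DESeq2 size factors and count totals changed no 2-fold call of a named gene and moved no count of guidance genes by over 1.5 times. For Osm over vehicle, the single gene past the 2-fold rule became 0 with a prior count of 2, with deposited FPKM and with the filter at 5 CPM. Under that filter the 1.5-fold counts for Osm also became 0 and 0. The filter at 5 CPM removes low genes by construction. It left 4 genes past the 2-fold rule with TGF-beta1 over vehicle, 1 of them lower, and 7 lower by the 1.5-fold rule. For Osm over TGF-beta1 it left 6, with 3 higher and 3 lower. Without a filter 8 guidance genes passed the 2-fold rule with TGF-beta1 over vehicle, 5 of them higher, the added gene being Unc5c (4.49-fold higher, 1.48 to 18.2, on 18 reads with TGF-beta1 and 4 with vehicle). The median log2 ratio of guidance genes for Osm over TGF-beta1 was then 0, against 0.13, since genes with almost no reads enter it. The 2-fold call of Sema4g with Osm over vehicle was lost with a prior count of 2 (0.98) and with FPKM (0.67). With FPKM, Epha4 lost it for TGF-beta1 over vehicle (-0.81), and Plxnb1 (0.82) and Efna3 (-0.98) for Osm over TGF-beta1. A pseudocount of 0.1 FPKM is large beside the level of these genes. By the 1.5-fold rule, single genes were not compared between settings, but calls were lost there too. With FPKM, 7 guidance genes were higher and 9 lower by that rule with TGF-beta1 over vehicle, against 8 and 12. Depth limits Epha7, Epha4, Epha1, Sema4g, Ntn3, Efna3 and Plxnb1, each under 70 reads in every library. The spread between cultures is unknown for all of the values.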
